A study of Mus musculus with 14 samples.

Results

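The passage of embryoid bodies (EBs) from day 2 (d2) to day 4 (d4) of differentiation was examined in 2 mouse embryonic stem cell (ESC) lines, and the genes that changed in both lines were described. The 4 libraries used, of 14 in the series, were shLacZ d2, shDis3l2 d2, shLacZ d4 and shDis3l2 d4, with 2 libraries per day and the line treated as a block. Of the 50686 genes in the count table, 17820 had enough reads to be tested, 1418 rose in both lines and 1745 fell in both lines.

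The series followed the 2 lines by polyA RNA sequencing from undifferentiated ESCs (d0) to EBs of d12. The ESCs carried an Osr1-GFP reporter and were kept in LIF and 2i, a growth factor and kinase inhibitor medium that holds them undifferentiated. They stably expressed a short hairpin RNA either against LacZ, a bacterial gene absent from the mouse (shLacZ, the control), or against Dis3l2, an exoribonuclease that degrades RNAs with 3′ uridine tails (shDis3l2). Removal of LIF and 2i and aggregation in hanging drops with serum started differentiation in both lines, and the EBs of d4 had left the drops for suspension culture, so that differentiation time and culture format changed together between d2 and d4. There was 1 library per line and day, and all cells of a line came from the same stable line. Each gene's p-value therefore rested on 1 residual degree of freedom, the disagreement between the lines in the d2 to d4 change. The edgeR fit combined it with the spread across genes, weighted as 9.55 degrees of freedom. No p-value measured the spread among replicates of a line. No label or method stated that the 2 lines were independent replicates of the d2 to d4 step.

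EBs are free-floating aggregates in which pluripotent cells differentiate without added inducers and pass through states that resemble the early embryo. In the embryo, the naive epiblast becomes a primed epithelium, and Wnt, Nodal and BMP signals then induce the primitive streak, where cells switch on T and Eomes, leave the epithelium and form mesoderm and definitive endoderm. Cells that escape these signals form ectoderm, while the visceral endoderm, an extraembryonic layer, surrounds the epiblast and often forms the outer layer of EBs.

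Dis3l2 (chr1:86703808-87050095, GRCm38) was lower in shDis3l2 on both days, with 15.8 CPM (reads per 1000000 reads on genes) in shLacZ d2 against 4.44 CPM in shDis3l2 d2, and 22.0 against 7.05 CPM at d4. Its own change from d2 to d4, a log2 fold change of 0.55 with an adjusted p of 0.0497, did not reach 2-fold in each line and was not called. Reads on genes numbered 26382579 and 21400973 at d2 (shLacZ and shDis3l2) and 7178712 and 20695661 at d4, so that shLacZ d4 was 2.88 times shallower than shDis3l2 d4 and 3 reads, the floor used for a gene without reads, stood for 0.418 CPM there against 0.114 to 0.145 CPM in the other libraries. Protein-coding genes took 85.6 to 88.1% and mitochondrially encoded mRNAs 3.95 to 4.56% of the reads in the 4 libraries.

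A gene was called rising or falling where the edgeR quasi-likelihood adjusted p was under 0.05 and CPM changed at least 2-fold in that direction in each line. By adjusted p alone 40.5% of the genes tested differed between the days, 3555 of them higher and 3655 lower at d4, and with the fold rule 7.96% rose and 9.79% fell. Counts of list members below are to be read beside these 2 shares. Of the 14291 protein-coding genes tested, 1309 rose and 1403 fell. The change reached 8-fold in each line for 195 rising and 204 falling genes, and the median log2 fold change of all genes tested was -0.04. Another 1220 genes passed the adjusted p with a 2-fold change in 1 line only. In bulk libraries fewer cells of a type and less RNA per cell cannot be told apart, and this holds for every gene below. With 2 libraries per day an exact permutation test cannot go below p = 0.333.

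**Figure D1:**
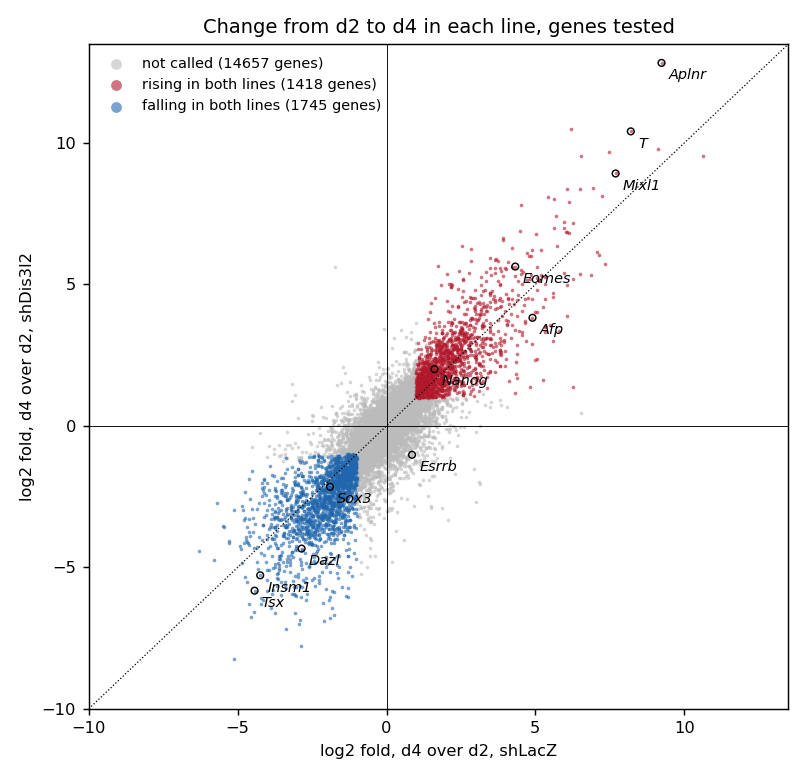
Log2 fold of CPM from d2 to d4 in shLacZ (x axis) and in shDis3l2 (y axis), 1 point per gene tested, with the dotted line marking equal change. The 1418 rising genes sit in the upper right and the 1745 falling genes in the lower left; T, Mixl1 and Aplnr lie among the largest rises, Tsx and Insm1 among the largest falls, and Esrrb on opposite sides of 0 in the 2 lines.

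The primitive streak and nascent mesoderm program came on almost as a whole. Of the 23 listed genes, 21 rose and 0 fell, which is 91.3% of the list where 7.96% of all genes tested rose, and the median log2 fold change was 4.95. The list was written with earlier results of these data known. With edgeR and with DESeq2 alike, 0 of the 23 were lower at d4 at an unadjusted p under 0.05, which only the 2 uncalled genes could have been. Summed over the list, CPM went from 136 to 1628 in shLacZ and from 124 to 3062.5 in shDis3l2. The count of 21 was the same under every alternative test, filter and left-out library that kept the 2-fold rule.

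T (Brachyury, ENSMUSG00000062327, chr17:8434423-8442496), the T-box factor that marks the streak and is needed for posterior mesoderm, stood at 1.63 CPM in shLacZ d2, 0.561 CPM in shDis3l2 d2, 486 CPM in shLacZ d4 and 795 CPM in shDis3l2 d4. The d4 libraries were far above the d2 libraries in both lines, with no overlap between days, though the call itself asked for a rise in each line. T rose 298-fold in shLacZ (95% Clopper-Pearson interval for counting error only, 221 to 413) and 1418-fold in shDis3l2 (812 to 2746), a log2 fold change of 9.06 ± 0.32 (SE, as for all values with ± here) with an adjusted p of 8.19e-08. Mixl1, a homeobox gene of mesendoderm, went from 0.758 and 0.654 CPM at d2 (shLacZ and shDis3l2, the order kept from here on) to 161 and 329 CPM at d4, a log2 fold change of 8.32 ± 0.22. Eomes, the T-box factor required for definitive endoderm and for cells to leave the streak, was already present at d2 with 14.97 and 11.5 CPM and reached 300.2 and 571 CPM, 20.1- and 49.7-fold higher. For these genes each d4 library exceeded each d2 library, which within a line the call already required, and shDis3l2 d4 held the highest value.

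Mesp1, the earliest marker of cardiac and cranial mesoderm, had 2 and 1 reads at d2 and 120 and 1194 at d4. In CPM this was 0.0758 and 0.0467 at d2 and 16.7 and 57.7 at d4, a ratio of 221 (59.7 to 1842) in shLacZ and 1235 (221 to 48808) in shDis3l2, with intervals kept wide by the 1 or 2 reads at d2. Aplnr, the apelin receptor of migrating mesoderm, showed the largest log2 fold change among the named genes at 11.08 ± 0.35, from 2 reads and 0 reads at d2 to 57.1 and 170.2 CPM at d4. The shDis3l2 rise was at least 1214-fold against the 3-read floor. Its ligand Apln rose from 6.90 and 3.46 to 70.6 and 121 CPM, so that ligand and receptor rose together.

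Further streak genes also rose. Evx1, a posterior streak homeobox gene, went from 0.682 and 0.280 to 62.7 and 101.3 CPM, and Gsc, the organizer homeobox gene of the anterior streak, from 0.114 and 0.140 to 8.50 and 18.9 CPM. Lhx1, a LIM homeobox gene of anterior mesendoderm, went from 4.21 and 2.66 to 93.5 and 316 CPM. Both posterior (T, Evx1, Wnt3a) and anterior (Gsc, Lhx1) streak genes were therefore among the 21. Msgn1 and Tbx6, regulators of presomitic mesoderm, reached 12.1 and 17.2 CPM from 3 and 0 reads and 6.83 and 19.3 CPM from 1.06 and 0.888 CPM. Fgf8, the growth factor that drives cell migration from the streak, rose from 1.55 and 1.12 to 23.8 and 45.3 CPM, a log2 fold change of 4.59 ± 0.29. Snai1, the zinc finger repressor of E-cadherin, rose 8.29- and 20.5-fold to 28.3 and 83.4 CPM. The 2 genes of the list that were not called were Cdx4, with at most 14 reads in any of the 4 libraries, and Foxh1, the Nodal-responsive forkhead factor, which was at 76.0 and 79.1 CPM at d2 and 132 and 156 CPM at d4.

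**Figure D2:**
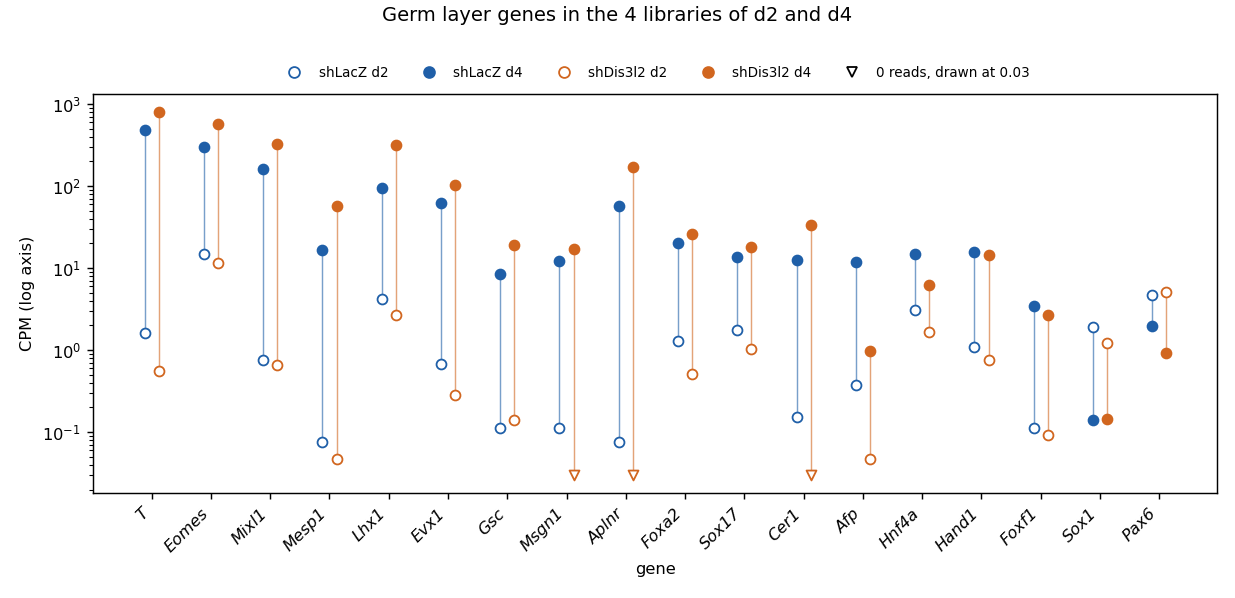
CPM (log axis) of 18 germ layer genes in the 4 libraries, open symbols for d2 and filled symbols for d4, blue for shLacZ and orange for shDis3l2, with triangles for genes without reads. Streak and endoderm genes climb from d2 to d4 in both lines, Sox1 and Pax6 go down, and Afp and Hnf4a end higher in shLacZ than in shDis3l2.

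The promoters of 3 of these rising streak genes are shown because they carry the letters CTTTGAT, the core bound by the TCF/LEF factors that mediate Wnt signalling. The letters were searched on both strands (ATCAAAG on the other) in the 300 bases from 250 before to 50 after each RefSeq start (GRCm38.p6), and capitals mark the match. Of the 21 rising streak genes 17 had a promoter in the table and 3 held the letters, against 3.73% of all 32851 promoters, 2.94% of the promoters of genes tested and 3.54% of those of rising genes. Sp5 (chr2:70474673-70474972, plus strand) holds it 104 bases before the start, Mesp1 (chr7:79793541-79793840, minus strand) 31 bases before, and Msgn1 (chr12:11208899-11209198, minus strand) 203 bases before on the opposite strand.
Sp5: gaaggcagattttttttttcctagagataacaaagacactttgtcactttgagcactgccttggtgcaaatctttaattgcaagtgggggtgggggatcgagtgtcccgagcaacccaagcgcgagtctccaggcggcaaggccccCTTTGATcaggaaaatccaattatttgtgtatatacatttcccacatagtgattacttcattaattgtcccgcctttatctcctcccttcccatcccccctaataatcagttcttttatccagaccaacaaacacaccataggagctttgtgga
Mesp1: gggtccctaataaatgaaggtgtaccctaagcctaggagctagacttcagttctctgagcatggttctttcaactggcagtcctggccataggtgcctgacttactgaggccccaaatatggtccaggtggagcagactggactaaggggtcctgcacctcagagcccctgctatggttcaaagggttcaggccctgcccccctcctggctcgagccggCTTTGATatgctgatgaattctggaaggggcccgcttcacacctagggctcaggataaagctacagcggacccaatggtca
Msgn1: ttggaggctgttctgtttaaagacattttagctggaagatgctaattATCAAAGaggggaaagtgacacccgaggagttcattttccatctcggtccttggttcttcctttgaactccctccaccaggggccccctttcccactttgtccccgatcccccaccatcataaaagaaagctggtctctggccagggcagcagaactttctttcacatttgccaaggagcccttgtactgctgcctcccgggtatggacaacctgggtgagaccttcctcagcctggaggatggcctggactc
The T-box letters TCACACC, on either strand, were in 1 of the 17, Mesp1, against 3.98% of all promoters, and the FOXH1 letters ATCCACA, on either strand, in 1, Mesp2, against 3.38%. These matches describe the sequence only.

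Definitive endoderm and anterior mesendoderm genes rose with the streak genes. Of 17 listed genes 15 were tested, 11 rose, 1 fell and the median log2 fold change was 1.72. Cer1, a secreted antagonist of Nodal, BMP and Wnt made by anterior endoderm, went from 4 and 0 reads at d2 to 89 and 701 reads at d4, 81.8-fold in shLacZ (30.8 to 307) and at least 242-fold in shDis3l2. Foxa2, the forkhead factor of endoderm and node, went from 1.29 and 0.514 CPM to 20.3 and 25.7 CPM, 15.8- and 50.01-fold. Sox17, which specifies definitive endoderm, went from 1.74 and 1.03 to 13.7 and 18.3 CPM with a log2 fold change of 3.50 ± 0.31. All 3 were called as rising, so by the rule their d4 values lay above the d2 values in each line.

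Cxcr4, a chemokine receptor on definitive endoderm and mesoderm, rose from 1.33 and 0.841 to 13.7 and 37.1 CPM. Hhex, the homeobox gene of anterior endoderm, rose less, from 5.38 and 4.49 to 11.4 and 11.5 CPM, and lost its call in the fit of all 14 libraries. The member that fell was Lefty1, a Nodal antagonist that is also a pluripotency target, from 71.9 and 66.0 to 10.3 and 12.5 CPM, 6.98- and 5.28-fold. Leaving out either shDis3l2 library made 2 members fall. Shh and Noto had too few reads to be tested.

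Visceral and parietal endoderm-like genes also rose, with 14 of the 20 tested called and a median log2 fold change of 2.20. In edgeR and DESeq2 alike 0 were lower at an unadjusted p under 0.05, which only the 6 uncalled genes could have been. Here the order of the lines was the other way round from the streak genes: 12 of the 14 rose more in shLacZ, and the summed CPM of the list went from 819 and 675 to 3130 and 1394. Afp, alpha-fetoprotein, went from 10 and 1 reads to 85 and 20 reads, or from 0.379 and 0.0467 to 11.8 and 0.966 CPM. Ttr, the thyroid hormone carrier transthyretin, went from 0.644 and 0.701 to 29.9 and 8.50 CPM, 46.5- and 12.1-fold. Both lines thus rose, and shLacZ d4 held the higher level.

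Apob, the structural protein of lipoproteins, went from 15.7 and 8.18 to 371 and 81.2 CPM with a log2 fold change of 3.98 ± 0.25. Dab2, an endocytic adaptor of visceral endoderm, went from 37.4 and 36.2 to 274 and 99.2 CPM. Hnf4a, the nuclear receptor that drives visceral endoderm secretion genes, went from 3.11 and 1.68 to 14.8 and 6.28 CPM. Sox7, an endoderm and endothelial factor, was at 2.20 and 1.82 CPM and then 14.1 and 3.43 CPM, short of 2-fold in shDis3l2 and not called. Gata4, shared with the cardiac list, and Pth1r were the 2 members with the larger rise in shDis3l2.

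Among the mesoderm derivatives, the lateral plate and cardiac list had 11 rising genes and 1 falling gene of 16 tested, with a median log2 fold change of 2.57. Hand1, a bHLH factor of lateral and extraembryonic mesoderm, went from 1.099 and 0.748 to 15.7 and 14.3 CPM, and Foxf1, a forkhead factor of splanchnic mesoderm, from 3 and 2 reads to 3.48 and 2.66 CPM. Pdgfra, the receptor of early mesoderm and primitive endoderm, rose from 11.7 and 10.2 to 86.8 and 146 CPM. Isl1 and Tbx20, cardiac progenitor factors, reached 12.5 and 13.0 CPM and 13.2 and 11.6 CPM, 5.70- and 6.49-fold and 10.3- and 6.05-fold higher than at d2. In this list the lines were close, with 6 of the 11 rising more in shDis3l2.

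Actc1, cardiac actin, was the contractile gene that rose, from 7 and 9 reads to 25.4 and 18.5 CPM, whereas Myh6, the atrial myosin heavy chain, fell from 14.3 and 11.9 to 3.20 and 3.09 CPM, a call lost in the fit of all 14 libraries. Nkx2-5, Tnnt2, Tbx5 and Gata5 had 7 or fewer reads in each of the 4 libraries and were not tested. Progenitor factors and contractile genes were thus each found both among the genes that rose and among those with too few reads.

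Of the 15 paraxial mesoderm and somite genes tested 7 rose, and all 7 rose more in shDis3l2. Tbx6, Msgn1 and Mesp2 among them also belong to the streak list. Cyp26a1, the enzyme that degrades retinoic acid in the streak, went from 0.948 and 0.467 to 63.8 and 161 CPM, 67.3- and 345-fold. Rspo3, an enhancer of Wnt signalling, went from 0.682 and 0.514 to 37.2 and 44.0 CPM, and Foxc1, a forkhead factor of paraxial mesoderm, from 2 reads in each line to 19 and 154 reads. Tcf15, which marks the epithelial somite and also the primed epiblast, fell from 12.4 and 10.6 to 2.93 and 1.79 CPM. Meox1 and Pax1, later somite genes, had at most 13 reads in any library. Without shLacZ d4 the number rising was 12, and without shDis3l2 d4 the number falling was 2.

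The blood-like and endothelial-like list was mixed, with 3 rising and 5 falling of 12 tested and a median log2 fold change of -1.20. Kdr, the VEGF receptor that marks the earliest hemato-vascular mesoderm, rose from 11.5 and 3.22 to 68.8 and 115 CPM, 5.99- and 35.8-fold. Tal1, the bHLH factor of blood commitment, fell from 5.91 and 2.71 to 2.79 and 0.725 CPM (adjusted p = 0.0075), but this call was lost with DESeq2, without the line block, without shLacZ d2 and without shDis3l2 d4. Etv2, the ETS factor between these stages, was at 8.68 and 5.09 CPM at d2 and 12.7 and 8.17 CPM at d4 and was not called. The embryonic globins Hbb-bh1 and Hba-x had 9 or fewer reads in each library. The list's count of falling genes was 3 without shLacZ d2 and 3 with DESeq2, and its count of rising genes was 5 without shDis3l2 d4.

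Intermediate mesoderm, the source of the kidney, split evenly, with 3 genes rising (Lhx1, Six2, Emx2) and 3 falling, Pax8 and Wt1 among them, of 9 tested. Six2, which maintains nephron progenitors, went from 5 and 2 reads to 10.2 and 14.98 CPM. Wt1, a zinc finger factor of the urogenital ridge, fell from 27.1 and 28.9 to 4.74 and 1.98 CPM, and Pax8 fell from 82 and 66 reads to 0 and 5. Osr1, a marker of intermediate mesoderm and the reporter locus of these ESCs, was not tested. It had 0 reads in both d2 libraries and 1 read in each d4 library. The list thus moved in both directions, and its rising member Lhx1 also belongs to the streak list.

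**Figure D3:**
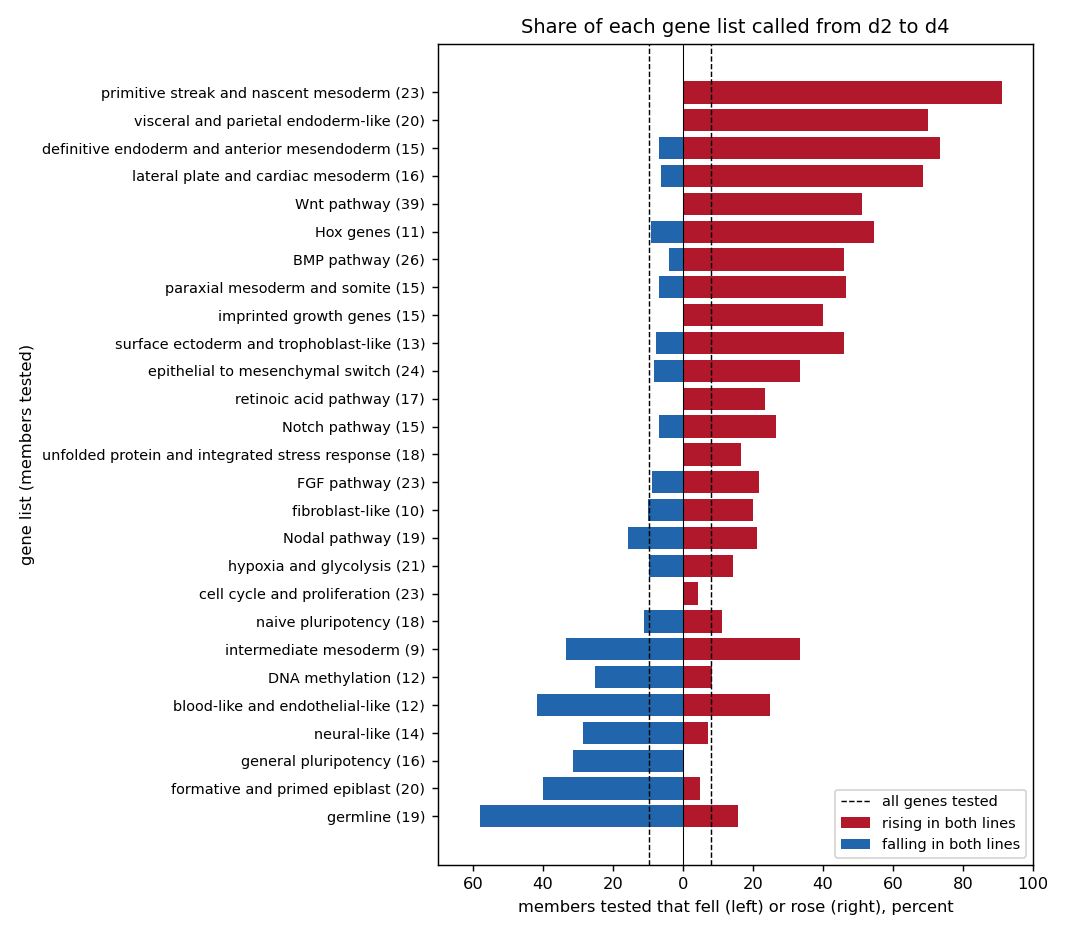
Percent of the members tested of each gene list that rose (red, right) or fell (blue, left) in both lines from d2 to d4, with dashed lines at the shares of all genes tested, 7.96% rising and 9.79% falling. Streak, endoderm, lateral mesoderm and Wnt lists extend to the right, and germline, formative and general pluripotency lists to the left.

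Among the signalling pathways, Wnt had the most rising members, 20 of 39 tested and 0 falling, with 1 lower at an unadjusted p under 0.05 in edgeR and 1 in DESeq2. Ligands of the streak rose. Wnt3, the ligand that initiates the streak, went from 10.3 and 9.30 to 62.7 and 81.2 CPM with a log2 fold change of 2.85 ± 0.16, and Wnt3a went from 3 reads in each line to 1.53 and 3.91 CPM. Wnt5a, a ligand of axis elongation, went from 3.37 and 3.55 to 31.1 and 42.7 CPM. The feedback targets Axin2 and Nkd1, which dampen the pathway that induces them, went from 19.4 and 14.7 to 112 and 135 CPM and from 3.30 and 2.01 to 24.1 and 27.8 CPM.

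Sp5, a zinc finger gene directly induced by Wnt and shown above with its promoter, went from 12 reads in each d2 library to 36.2 and 83.2 CPM, 79.6- and 148-fold. At d0, in 2i medium, it had stood at 12.6 and 22.5 CPM. Of the secreted antagonists, Dkk1, Frzb and Sfrp5 rose, Sfrp1, Sfrp2 and Notum were not called, and Dkk4 was not tested. Dkk1 went from 4.17 and 3.50 to 24.9 and 29.1 CPM and Frzb from 1.21 and 0.607 to 60.5 and 164 CPM. Receptors and nuclear mediators were mostly not called, among them Ctnnb1, Lrp5, Lrp6, Tcf7, Tcf7l1 and Lef1, while Fzd1, Fzd10, Lgr5 and Tcf7l2 rose.

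In the BMP pathway 12 of 26 tested genes rose and the median log2 fold change was 1.17. The ligand Bmp2 went from 1.14 and 0.467 to 8.08 and 6.47 CPM, and Bmp4, the main ligand of posterior mesoderm, was at 4.55 and 5.28 CPM and then 17.1 and 10.1 CPM, 3.77-fold higher in shLacZ and 1.90-fold in shDis3l2, and so not called. The homeobox targets Msx1 and Msx2 rose from 6.37 and 8.50 to 41.9 and 47.6 CPM and from 0.910 and 0.561 to 30.9 and 21.9 CPM. By contrast Id1, another BMP target, was at 43.1 and 52.5 CPM at d2 and 67.8 and 55.6 CPM at d4. Secreted proteins that bind BMPs or activin made up 5 of the 12 rising genes (Chrd, Nog, Grem1, Fst, Bmper), and Fst, follistatin, reached 220.2 and 361 CPM from 39.8 and 28.3 CPM.

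In the Nodal pathway the ligand was not called. Nodal stood at 113 and 106 CPM at d2 and 106 and 97.0 CPM at d4, and its coreceptor Tdgf1 at 431 and 408 CPM and then 459 and 855 CPM, neither called. Cfc1, another coreceptor of the same family, rose from 0.455 and 0.374 to 10.0 and 13.8 CPM. The antagonist Lefty2 was at 47.5 and 43.7 CPM at d2, and at d4 at 15.3 CPM in shLacZ but 44.3 CPM in shDis3l2. In all 4 of 19 tested genes rose and 3 fell, and 7 rose without shLacZ d2 and 8 without shLacZ d4.

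Some FGF ligands fell and others rose. Fgf4, the autocrine ligand of pluripotent cells, fell from 139 and 135 to 15.2 and 13.96 CPM, a log2 fold change of -3.25 ± 0.13, and Fgf15 fell from 55.5 and 43.7 to 11.1 and 18.8 CPM. Fgf3, Fgf8, Fgf10 and Fgf17 rose, Fgf10 from 1.59 and 1.26 to 46.5 and 51.5 CPM and Fgf17 from 1.099 and 1.07 to 5.71 and 7.01 CPM. Fgf5, the ligand of the primed epiblast, stood at 111 and 88.3 CPM at d2 and 87.8 and 107 CPM at d4 and was not called. Of the 23 genes tested 5 rose and 2 fell, and 9 rose without shLacZ d2 and 8 without shLacZ d4. In the fit of all 14 libraries Fgf15 lost its call and 1 member fell. The feedback regulators Spry4 and Dusp6 were not called. With all 4 libraries the shares of the list were 21.7% rising and 8.70% falling, against 7.96% and 9.79% of all genes tested.

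Smaller groups moved in the Notch and retinoic acid pathways. Among 15 Notch genes tested, Hes1, Hey1, Notch4 and Nrarp rose and Dll4 fell, 26.7% and 6.67% against 7.96% and 9.79% of all genes tested. Hes1, the main effector, went from 19.9 and 17.1 to 58.5 and 59.5 CPM and Hey1 from 1.74 and 2.10 to 7.80 and 12.3 CPM. Dll4 had 3 and 6 reads at d4, and its fall was lost with DESeq2, without shLacZ d2 and with the d0 libraries added, while the rising members numbered 7 without shLacZ d2 and 8 without shLacZ d4. Of 17 retinoic acid genes 4 rose, Cyp26a1 and Hoxb1 among them, whereas Aldh1a2, the enzyme that makes retinoic acid in mesoderm, had 20, 15, 11 and 20 reads in the 4 libraries. The degrading enzyme thus rose, while Aldh1a2 had few reads on both days and was not called. These read numbers are not scaled to depth, and shLacZ d4 was the shallowest library. Aldh1a3 and Rdh10 of the list were not called either.

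Genes of the epithelial to mesenchymal switch changed in part. Cdh2, N-cadherin, rose from 16.5 and 14.6 to 169 and 271 CPM with a log2 fold change of 3.76 ± 0.18, and Cdh11, a mesenchymal cadherin, from 3.34 and 2.06 to 98.6 and 155 CPM. Fn1, the matrix protein fibronectin, rose 4.28- and 8.45-fold to 2138 and 3406 CPM, and Zeb2, a repressor of epithelial genes, went from 7.505 and 4.91 to 26.7 and 32.3 CPM. Cdh1, E-cadherin, was at 933 and 757 CPM at d2 and still at 737 and 524 CPM at d4, and the epithelial adhesion gene Epcam was at 171 and 164 and then 107 and 104 CPM, neither called.

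In all, 8 of 24 genes rose, each more in shDis3l2, and 2 fell, Grhl2, an epithelial transcription factor, and Snai2. The shares were 33.3% and 8.33%, against 7.96% and 9.79% of all genes tested. Snai2, the paralog of Snai1, went from 66 and 57 reads to 3 and 14 reads, opposite in direction to Snai1. Vim, vimentin, stood at 169 and 154 CPM and then 248 and 166 CPM and was not called. The falling members numbered 4 without shLacZ d4 and 1 with DESeq2 or all 14 libraries.

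In the neural-like list 1 of 14 tested genes rose, 7.14% against 7.96% of all genes tested, and 4 fell (Sox1, Pax6, Neurod1, Pou3f3), 28.6% against 9.79%, with a median log2 fold change of -0.85. Sox1, the earliest neuroectoderm factor, went from 51 and 26 reads to 1 and 3 reads, and Pax6 fell from 4.74 and 5.05 to 1.95 and 0.918 CPM, a call lost in the fit of all 14 libraries, in which only 2 members fell. The rising member was Nes, the intermediate filament nestin, which is also made by mesoderm and which went from 70.0 and 55.5 to 201 and 175 CPM. Hesx1 and Six3, anterior neural genes, had too few reads to be tested. Without shLacZ d4 2 members rose.

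In the surface ectoderm and trophoblast-like list 6 of 13 rose, but 3 of these were Eomes, Cdx2 and Hand1, which streak and lateral mesoderm also express. Krt8 and Krt18, the simple epithelial keratins, went from 11.9 and 12.5 to 185 and 77.5 CPM and from 13.7 and 14.4 to 194 and 62.6 CPM, both higher in shLacZ d4, as the visceral endoderm-like genes were. The defining markers were at or near 0, with Trp63 at 8 or fewer reads and Elf5 at 2 or fewer reads in each library, and Krt5 without reads at d4. Gcm1 fell by this rule, and the number falling was 2 without shLacZ d2, 3 without shLacZ d4, and 0 with DESeq2 or all 14 libraries.

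Pluripotency genes did not move as a block. Pou5f1 (Oct4), the core factor, was at 955 and 949 CPM at d2 and 740 and 886 CPM at d4 and was not called (adjusted p = 0.08). Sox2, its partner, fell from 117 and 127 to 35.0 and 32.6 CPM, a log2 fold change of -1.88 ± 0.13, and Utf1, Dppa2 and Dppa4 fell with it, Utf1 from 165 and 168 to 38.3 and 27.3 CPM and Dppa4 from 89.9 and 86.4 to 22.0 and 10.5 CPM. In the general list 5 of 16 fell and 0 rose, 4 being higher at an unadjusted p under 0.05 in edgeR and 3 in DESeq2, with 3 falling in the fit of all 14 libraries, and 1 and 2 rising without shLacZ d2 and shLacZ d4.

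Nanog rose at this step. It had dropped between d0 and d2, from 352 and 327 CPM to 55.5 and 43.2 CPM, and stood at 169 and 174 CPM at d4, 3.05- and 4.02-fold above d2, before being at 43.0 and 6.97 CPM at d6. Its call was lost in the fit of all 14 libraries. Tbx3, a T-box gene of naive cells and mesoderm, also dropped from 137 and 223 CPM at d0 to 8.57 and 7.48 CPM at d2. It stood at 46.1 and 38.7 CPM at d4. Unlike Nanog, it was at least 2-fold higher at d6 than at d4 in both lines. The other naive genes did not rise with them: of 18 tested 2 rose and 2 fell, and Klf2, Klf4, Tfcp2l1 and Zfp42 were not called. Each count was 11.1% of the list, near the 7.96% rising and 9.79% falling of all genes tested. Only 1 rose in the fit of all 14 libraries.

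Esrrb, an orphan nuclear receptor of naive cells, went in opposite directions in the lines, from 17.6 to 31.9 CPM in shLacZ (1.81-fold, 1.54 to 2.12) and from 20.3 to 10.0 CPM in shDis3l2 (2.03-fold down). Zfp42 (Rex1) was at 62.9 and 75.3 CPM and then 48.9 and 16.0 CPM. In the naive list the median log2 fold was 0.42 in shLacZ and -0.86 in shDis3l2, and without shLacZ d4 the number falling was 8, while without shDis3l2 d4 the number rising was 4. A term for line by day would leave no residual degree of freedom, so this contrast between shLacZ and shDis3l2 was not tested.

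**Figure D4:**
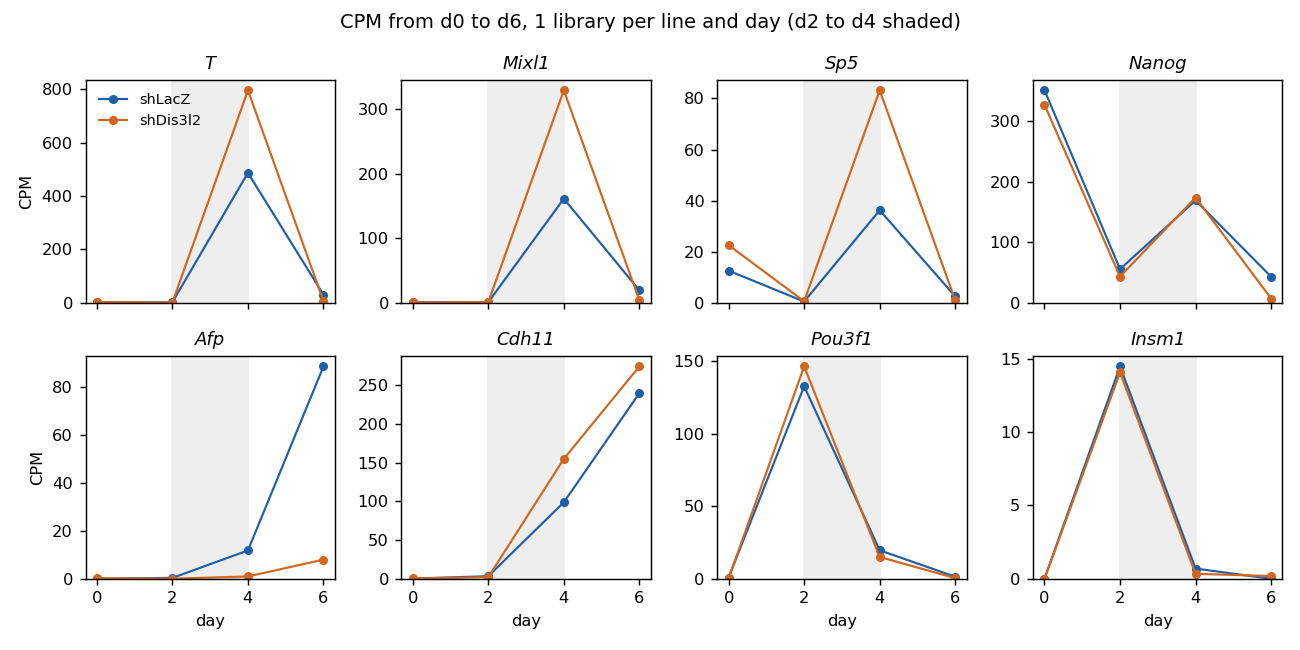
CPM of 8 genes at d0, d2, d4 and d6 in shLacZ (blue) and shDis3l2 (orange), 1 library per point, with the d2 to d4 step shaded. T, Mixl1 and Sp5 peak at d4, Nanog dips at d2 and is higher at d4, Afp and Cdh11 keep rising to d6, and Pou3f1 and Insm1 peak at d2.

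Formative and primed epiblast genes, which had come on between d0 and d2, divided. Pou3f1 (Oct6), a POU factor of the primed epiblast, fell from 133 and 146 to 19.6 and 15.03 CPM, 6.76- and 9.75-fold, and Sox3 and Foxd3 fell from 19.98 and 17.1 to 5.29 and 3.82 CPM and from 22.0 and 23.5 to 4.46 and 5.27 CPM. Otx2, the anterior epiblast homeobox gene, was at 144 and 125 CPM at d2 and 68.1 and 99.97 CPM at d4, and Zic2 at 97.1 and 86.7 and then 94.3 and 159 CPM, neither called. In all 8 of 20 fell and 1 rose, Nkx1-2, and 3 rose without shLacZ d2 or without shLacZ d4. In the fit of all 14 libraries 5 fell.

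The de novo DNA methylation enzymes, high at d2, were lower at d4. Dnmt3a fell from 578 and 547 to 146 and 158 CPM, and its cofactor Dnmt3l from 306 and 374 to 78.6 and 33.3 CPM. Dnmt3b was at 2296 and 1917 CPM and then 1079 and 1180 CPM, 2.13-fold lower in shLacZ but 1.62-fold in shDis3l2, so that it passed the adjusted p (0.000117) and not the fold rule. Tet1, which oxidizes methylcytosine, fell from 541 and 428 to 198 and 160 CPM. Of 12 genes in the list 3 fell and 1 rose, Uhrf2, and Dnmt1, the maintenance enzyme, was not called.

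The germline list fell more often than any other list described here, with 11 of 19 tested genes falling, 57.9% where 9.79% of all genes fell, and a median log2 fold change of -2.71. Dazl, an RNA-binding protein of germ cells, went from 16.6 and 19.999 to 2.23 and 0.966 CPM, 7.43- and 20.7-fold down. The meiotic chromosome genes Sycp1 and Hormad1 went from 6.22 and 5.84 to 0.697 and 0.387 CPM and from 6.10 and 11.2 to 0.975 and 0.628 CPM, and Mael, a piRNA pathway gene, from 11.4 and 10.7 to 1.53 and 1.498 CPM. Every d4 value of these genes was below every d2 value, though the call itself asked for a fall in each line. Prdm1, Tfap2c and Kit, which act in primordial germ cells but also in other tissues, rose, Kit from 9.17 and 6.73 to 26.7 and 32.8 CPM.

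Promoters of 3 falling germline genes are shown because they carry CACGTG, an E-box, which reads the same on both strands. The letters were in 6 of the 11 falling germline genes (Hormad1, Mael, Slc25a31, Stk31, Sycp1, Taf7l), all of which had a promoter in the table, against 7.15% of all promoters, 11.4% of those of genes tested and 7.41% of those of falling genes, and the motif was added after the values had been seen. In Slc25a31 (chr3:40708621-40708920, plus strand) the match lies 93 bases before the start, in Stk31 (chr6:49395289-49395588, plus strand) 55 bases before and in Sycp1 (chr3:102936051-102936350, minus strand) 94 bases before, in capitals here.
Slc25a31: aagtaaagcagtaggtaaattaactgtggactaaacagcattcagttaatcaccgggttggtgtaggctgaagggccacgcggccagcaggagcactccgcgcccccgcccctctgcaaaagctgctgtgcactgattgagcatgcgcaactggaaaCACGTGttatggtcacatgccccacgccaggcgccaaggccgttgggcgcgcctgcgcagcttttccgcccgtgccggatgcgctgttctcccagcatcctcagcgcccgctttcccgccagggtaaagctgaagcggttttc
Stk31: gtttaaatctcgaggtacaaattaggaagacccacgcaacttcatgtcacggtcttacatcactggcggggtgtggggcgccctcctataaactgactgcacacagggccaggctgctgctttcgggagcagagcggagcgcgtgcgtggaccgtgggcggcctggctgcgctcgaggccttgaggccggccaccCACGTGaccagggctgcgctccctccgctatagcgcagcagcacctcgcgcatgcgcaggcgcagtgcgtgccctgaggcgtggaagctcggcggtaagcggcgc
Sycp1: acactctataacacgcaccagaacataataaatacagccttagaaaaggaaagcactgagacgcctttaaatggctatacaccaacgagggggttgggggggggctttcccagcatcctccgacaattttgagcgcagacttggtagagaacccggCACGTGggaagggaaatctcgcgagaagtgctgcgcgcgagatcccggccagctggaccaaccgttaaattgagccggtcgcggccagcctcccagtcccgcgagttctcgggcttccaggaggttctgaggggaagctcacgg
Slc25a31, a testis ADP/ATP carrier, went from 171 and 229 reads to 6 and 10, and Stk31 from 12.0 and 12.9 to 1.53 and 1.30 CPM. The E2F letters TTCCCGC, on either strand and also added after the values were seen, were in 2 of the 11, Hormad1 and Slc25a31, against 9.68% of the promoters of genes tested. These matches, too, describe the sequence only.

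The 15 largest falls among protein-coding genes with at least 10 CPM in both d2 libraries had edgeR log2 fold changes from -5.53 to -4.01. Tsx, an X-linked gene of testis and stem cells, led with 277 and 322 reads at d2 and 3 and 5 at d4. Insm1, a zinc finger factor of neuroendocrine cells, went from 14.5 and 14.1 to 0.697 and 0.338 CPM after no reads at d0, so that it was high at d2 alone. Gfra1, the GDNF coreceptor, fell from 21.0 and 23.4 to 0.975 and 0.676 CPM, and Sohlh2, a germ cell bHLH factor, from 22.8 and 25.8 to 2.37 and 0.966 CPM. The others were Vwa3b, Capn3, Slc5a11, Dmrtc1c1, Col6a4, Dglucy, Gm364, Pla2g10, Ryr3, Naa11 and Galnt6. Naa11 and Dmrtc1c1 have near-identical relatives, and how reads were shared with them is not given in the sources used here.

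Of the 15 largest rises by the same rule at d4, 11 belonged to the lists described above (Aplnr, T, Mesp1, Mixl1, Cer1, Msgn1, Evx1, Cyp26a1, Sp5, Frzb and Six2). The other 4 were Pcdh7, Sprr2a1, Prdm6 and Klhl6. Pcdh7, a protocadherin, went from 4 and 3 reads to 94.9 and 145 CPM, a log2 fold change of 9.56 ± 0.23. Prdm6, a chromatin regulator of smooth muscle, went from 2 and 3 reads to 12.5 and 11.6 CPM. Sprr2a1, a cornified envelope gene with near-identical neighbours, went from 11 and 6 reads to 60.7 and 20.1 CPM, higher in shLacZ.

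Of the Hox genes, which pattern the axis and are induced from the 3′ to the 5′ end of each cluster, few were measurable. Of 39 Hox genes 11 were tested, 6 rose, among them Hoxa3, Hoxa13, Hoxb1, Hoxb2 and Hoxb3, and Hoxd13 fell. Hoxb1, among the earliest to be induced in the streak, went from 0.493 and 0.561 to 13.51 and 21.0 CPM, and Hoxb2 from 1 and 0 reads to 28 and 115 reads. Hoxa13, a gene of the 5′ end, went from 1 and 0 to 7 and 23 reads. Only 3 rose with a minimum of 1 CPM in 2 libraries or without shDis3l2 d4. The fall of Hoxd13 was absent with DESeq2, without shLacZ d2 and with all 14 libraries, and 3 fell without shLacZ d4.

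Imprinted growth genes had 6 of 15 rising and 0 falling, with 3 lower at an unadjusted p under 0.05 in edgeR and 3 in DESeq2. Igf2, insulin-like growth factor 2, went from 9.13 and 8.69 to 62.7 and 22.8 CPM, and was lost in the fit of all 14 libraries, while H19, which shares its enhancers, was at 199 and 127 CPM and then 222 and 59.0 CPM, not called. Peg10 and Peg3 rose from 314 and 194 to 1526 and 633 CPM and from 661 and 443 to 1719 and 1337 CPM, and Phlda2, a placental growth regulator, from 4.06 and 6.17 to 34.1 and 55.3 CPM. Cell cycle genes had 1 rising gene of 23, Ccnd2 (cyclin D2), from 21.1 and 17.1 to 72.2 and 109 CPM, and a median log2 fold change of -0.01, with 1 falling without shLacZ d2, shLacZ d4 or shDis3l2 d4, and the unfolded protein and stress list had 3 rising of 18 (Chac1, Herpud1, Atf3), 16.7% against 7.96% of all genes tested.

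In the hypoxia and glycolysis list 3 of 21 rose (Slc2a3, Vegfa, Ndrg1) and 2 fell (Bnip3, Ankrd37), with 4 and 5 falling without shLacZ d2 and shLacZ d4. The shares with all libraries were 14.3% rising and 9.52% falling, against 7.96% and 9.79% of all genes tested. Slc2a3, a glucose transporter, rose from 144 and 132 to 838 and 366 CPM, and Ldha, lactate dehydrogenase, was at 1643 and 1868 and then 1468 and 2185 CPM. Fibroblast-like genes had 2 rising (Pdgfrb, Col6a1) and 1 falling (Dcn) of 10, or 20% and 10% against the same shares of all genes. They had a summed CPM of 53.5 and 47.9 at d2 and 78.8 and 43.4 at d4, and at most 57 reads on Col1a1 in any library. The number falling was 2 without shLacZ d2, shLacZ d4 or shDis3l2 d4. The number rising was 5 without shDis3l2 d4, 4 without a filter on low counts and 1 with DESeq2 or all 14 libraries. Cytosolic ribosomal protein genes had a median log2 fold change of -0.21 over 79 tested and the 13 mitochondrially encoded mRNAs one of -0.06, with 0 of the latter passing an unadjusted p of 0.05 in edgeR or DESeq2.

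The size of the change differed between the lines by list. All 21 rising streak genes, 10 of 11 rising endoderm genes and all 7 rising paraxial genes rose more in shDis3l2, where 64.3% of all rising genes did so. Tbx6, Msgn1 and Mesp2 count in both the streak and the paraxial list, so these lists are not independent. In contrast 12 of 14 visceral and parietal endoderm-like genes rose more in shLacZ. The median log2 fold of the streak list was 4.32 in shLacZ and 5.31 in shDis3l2, and that of the visceral and parietal endoderm-like list 2.77 and 1.93. Among falling genes 74.2% fell further in shDis3l2, and the shallower shLacZ d4 library, in which 0.5 added to a count weighs more, moved with this; its part was not tested. No test of line by day was possible with these 4 libraries.

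**Figure D5:**
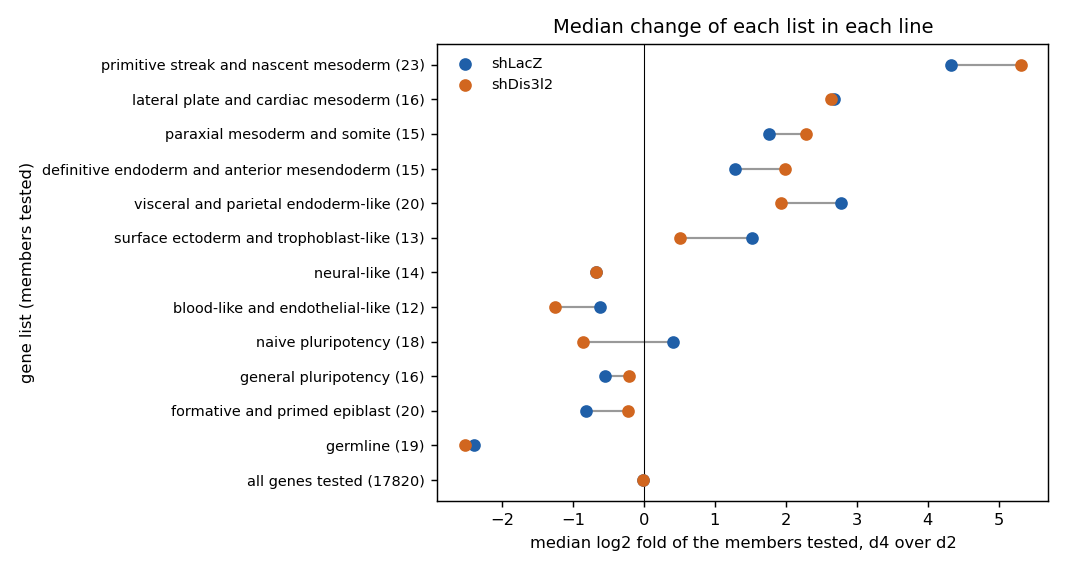
Median log2 fold from d2 to d4 of the members tested of each list in shLacZ (blue) and shDis3l2 (orange), with the number tested in brackets. The orange point lies to the right for the streak list (5.31 against 4.32) and to the left for the visceral and parietal endoderm-like list (1.93 against 2.77), and the naive pluripotency list lies on both sides of 0.

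The d6 libraries, which share no sample with d2 but are compared here with the same d4 libraries, show which of the rising genes stayed high. Of the 21 rising streak genes 18 were at least 2-fold lower at d6 than at d4 in both lines and 1, Cdx2, was at least 2-fold higher, whereas of all 1418 rising genes 16.9% were lower and 14.5% higher by that measure, and of all genes tested 7.96% and 4.21%. T was down to 29.9 and 6.50 CPM and Mixl1 to 19.2 and 4.05 CPM by d6. In the lateral plate and cardiac list 6 of the 11 rising genes were at least 2-fold higher at d6 and 1 lower, with Hand1 at 151 and 299 CPM and Foxf1 at 49.0 and 69.4 CPM. Among the visceral and parietal endoderm-like genes 6 of 14 were higher at d6 and none lower, Afp standing at 88.8 and 8.01 CPM.

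At the other end, 59.0% of the 1745 falling genes had been at least 2-fold lower at d0 than at d2 in both lines, Pou3f1 and Insm1 among them, beside 34.5% of the rising genes and 39.4% of all genes tested. The d0 libraries had TMM factors of 0.764 and 0.642, against 1.09 and 1.05 at d2 (shLacZ and shDis3l2), and with CPM divided by these factors, a scaling chosen after the data were seen, the shares were 50.5%, 26.9% and 29.0%. Of the rising genes 15.1% had been at least 2-fold higher at d0 than at d2, against 13.1% of all genes tested (22.0% and 21.6% after TMM scaling), so that a d2 trough was about as frequent among rising genes as among all genes. Nanog, Tbx3, Sp5, Gsc and Cdx1 had one. Gsc was at 13.2 and 14.3 CPM at d0, 0.114 and 0.140 CPM at d2 and 8.50 and 18.9 CPM at d4. These shares used the same d2 and d4 libraries as the calls and are given as descriptions.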

How the data were processed

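PolyA RNA of 14 libraries, 1 per line and day, was sequenced on an Illumina instrument. Per the labels and methods the authors used Subread for alignment to GRCm38 and featureCounts for gene counts, with FastQC and limma also listed; the strand setting is not given in the sources used here, so overlapping and antisense genes may share reads. The authors deposited raw read counts per gene for 50686 genes, the values tested here. They also deposited a table of CPM for 16181 genes, which equalled CPM recomputed from those counts (largest relative difference 5e-15) and was not used further. Columns headed shm5 were taken as shDis3l2.

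CPM here is reads per 1000000 reads on genes. Counts of the 4 libraries were fitted in edgeR 4.0.16 (R 4.3.3) with TMM factors, filterByExpr and a design of line plus day, which left 1 residual degree of freedom, and day was tested by the quasi-likelihood F test with Benjamini-Hochberg adjustment over 17820 genes. A call needed an adjusted p under 0.05 and a 2-fold change in each line, with 0.5 added to each count. Fold changes per line carry 95% Clopper-Pearson intervals, which, like the 3-read floor, cover counting error only. Comparisons with d0 and d6 added 0.1 CPM. The scripts were checked on simulated data. Gene positions are those of GENCODE M21 for the 50462 genes matched.

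The members, the 26 lists and 3 families, and the motifs were chosen with earlier results of these data known. Named genes were fixed anchor genes of the lists, the 15 largest rises and falls with at least 10 CPM, Dis3l2, genes moving in opposite directions by 2-fold with over 20 reads, and list members where 5 or fewer are counted. Further list members were named as examples after their values were seen. Some list members are not reported here. Alternatives were DESeq2 1.42.0, library totals, other filters, a 3-fold rule, no minimum fold, no block, added libraries, protein-coding genes alone and each library left out.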

Additional observations from a re-analysis of the deposited data

Results flagged for a closer look

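Of the genes tested with over 20 reads in the higher library of each line, 15 moved by at least 2-fold in opposite directions. Of these 8 were up in shLacZ and 7 up in shDis3l2. The 10 below were those whose smaller fold of the 2 lines was largest. The contrast between the lines was tested for none of them, since each line had a single library per day. Aoc3, an amine oxidase, changed by 2.30 (log2, shLacZ) and -1.70 (log2, shDis3l2), on 17, 28, 23 and 8 reads (shLacZ d2, shDis3l2 d2, shLacZ d4, shDis3l2 d4). Prss35, a serine protease, had 1.12 and -1.33, Cpsf4l 1.63 and -1.23, 4933402E13Rik 1.11 and -1.29, and Gm10800 1.14 and -2.07. The other direction was seen for Elfn2 (-1.34 in shLacZ and 1.19 in shDis3l2), Hoga1 (-1.08 and 1.09), Gm6177 (-1.53 and 1.502), Gm6184 (-1.23 and 1.57) and Gm11025 (-1.72 and 5.60, on 42, 0, 3 and 23 reads). A call needed the same direction in each line, so none of the 10 could have been called. No member of the germ layer lists was among them.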

How the results depend on the processing

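The counts of 1418 rising and 1745 falling genes stayed within 1.5 times under library totals (1419 and 1742), no filter (1453 and 1883), a minimum of 1 CPM in 2 libraries (1275 and 1405), 6 libraries with d0 (1307 and 1589) and protein-coding genes alone (1288 and 1390). The fit without the line block, which the replicate block of the design provides, gave 1395 and 1725. The libraries of a line are 1 stable line each, not paired animals, and the pairing rests on the line alone. A 3-fold rule gave 784 and 1054, no minimum fold 3553 and 3653, DESeq2 1124 and 1079, and all 14 libraries 1139 and 1214. Leaving out each library in turn, with day as the only term, the lone library assumed to vary like the others and the fold asked of the complete line, gave 1287 to 1936 rising and 1497 to 2514 falling genes. Of the 92 named genes called, 84 kept their call and direction under every alternative that tested them but the 3-fold one, which kept 81. With a minimum of 1 CPM in 2 libraries only 91 of the 92 were tested, and all 91 kept their call. The 8 that lost their call were Fgf15, Hhex, Igf2, Nanog, Pax6, Sox3, Tal1 and Utf1, all in the fit of all 14 libraries, in which the later days set the spread. The log2 fold changes of Esrrb, H19 and Klf2, not called with all 4 libraries, ranged from -0.93 to 0.74, -1.47 to 0.44 and -0.76 to 0.67 over the libraries left out, positive without shDis3l2 d4 and lowest without shLacZ d4, and the cause was not tested. Retinoic acid genes, with 0 falling, had 1 without shLacZ d2, shLacZ d4 or shDis3l2 d4, and imprinted genes 1 without shLacZ d4 or shDis3l2 d4. The depth of shLacZ d4 limits genes under about 0.418 CPM there, the level of 3 reads.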

Other observations

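Long intergenic noncoding RNAs were described after their values had been seen. Of 278 tested, 14 rose and 86 fell, 5.04% and 30.9%, where 9.16% of the 14291 protein-coding genes rose and 9.82% fell. Of 192 antisense transcripts 9.38% rose, close to the protein-coding share, and 20.8% fell, between the other shares. The median level over the 4 libraries was 0.70 log2 CPM for the intergenic RNAs and 4.396 log2 CPM for protein-coding genes, so that the groups also differed in depth, whose part was not tested. Platr3, Platr5 and Platr7, named for their association with pluripotency, fell, Platr3 from 6.29 and 11.2 CPM at d2 (shLacZ and shDis3l2) to 0.697 and 1.11 CPM at d4. Among the intergenic RNAs with at least 5 CPM in both d4 libraries, the largest rise was that of Gm45889 on chromosome 7. It went from 0 reads and 1 read to 213 and 1085 reads, at 29.7 and 52.4 CPM at d4 and 56.9 and 51.0 CPM at d6.

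Among 79 cytosolic ribosomal protein genes 3 fell and 0 rose, 3.80% and 0% against 9.79% and 7.96% of all genes tested. At an unadjusted p under 0.05, 27 were lower in edgeR and 18 in DESeq2, and 0 were higher in either. The 3 called as falling were Rpl10l, Rpl39l and Rpl3l, tissue-restricted relatives of Rpl10, Rpl39 and Rpl3. Rpl10l went from 44.3 and 59.2 to 7.24 and 4.30 CPM and Rpl39l from 25.1 and 29.5 to 1.67 and 1.88 CPM, while Rpl3l had 1 read in each d4 library. All 3 fell further in shDis3l2. Their parent genes were not called, and because the copies are similar in sequence the split of reads between them is uncertain.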
